A study of Homo sapiens with 4 samples.

Results

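The interferon-induced genes were 35 listed transcripts that cells switch on after exposure to interferon, here followed in U87, an established human glioma cell line. They were chosen by name, as the probe sets whose platform annotation names exactly 1 gene, that gene being on the list. A probe set is the group of short array probes that reports 1 transcript. The rule found 61 probe sets for 34 genes, of 41920 probe sets in the table once 10 array controls were set aside. STAT2, the transcription factor that partners IRF9, was not analysed here. Of the 34 genes, 18 had 2 or more probe sets and 16 had 1. All 4 samples came from U87 cells in which QK (gene symbol QKI, which encodes a splicing regulator) was knocked down. In 2 of them the cells had also been transduced with miR-20a, and in the other 2 with miR-NT, a scrambled microRNA without a target. The labels give neither the knockdown reagent nor the time after transduction, and no sample without the knockdown was analysed here. The question was how transcript levels compare with and without added miR-20a against the knockdown background.

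Interferons are secreted proteins that bind receptors on the cell surface and activate JAK kinases, which phosphorylate STAT proteins. Phosphorylated STATs join IRF9 in a complex that enters the nucleus and binds a DNA element called the interferon-stimulated response element (ISRE). The genes so induced encode sensors of viral RNA, enzymes that stop viral replication and translation, and proteins that restrict entry or release of virus. In glioma and other tumour cells many of them are also expressed without added interferon, and the set is known as a marker of basal or chronic interferon signalling.

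The sequences below show the microRNA that was added and the promoter element that many of the induced genes carry. A microRNA finds its targets mainly through bases 2 to 8 of its 5′ end, the seed, given here in capitals for miR-20a-5p and for miR-17-5p, from which its family takes its name. Mature miR-20a-5p lies at chr13:91351072-91351094 on the plus strand and miR-17-5p at chr13:91350618-91350640 on the plus strand (RefSeq, GRCh38.p14). RefSeq listed 8 mature human microRNAs with this seed.
hsa-miR-20a-5p: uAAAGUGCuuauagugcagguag
hsa-miR-17-5p: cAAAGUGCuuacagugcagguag

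The core letters of the ISRE were searched as GAAANNGAAA on either strand (the other strand reads TTTCNNTTTC) in windows from 250 bases before to 50 after each RefSeq start site. Overlapping matches were merged. Of the 34 genes, 28 had a promoter in the table and 20 of these 28 (71.4%) held the letters, against 4.38% of all 27305 gene symbols with a promoter. Counted by window, 24 of 38 member promoters held them (63.2%), against 3.57% of 35116 promoters of the same length. The element of interferon-gamma, searched as TTCNNNGAA, which reads the same on the other strand, was in 10 of the 28 genes (35.7%), against 9.38% of all. A match is a run of letters and no evidence of binding. The windows below belong to members among those furthest below and above the control arrays and to IFI44, the neighbour of IFI44L, with 15 bases on each side of the match and the matching letters in capitals, 5′ to 3′ on the strand of the gene (RefSeq, GRCh38.p14). They are chr1:78620360-78620399 plus for IFI44L, chr1:78649756-78649795 plus for IFI44, chr11:313985-314024 plus for IFITM1, chr19:17405730-17405775 minus for BST2, chr1:27672283-27672322 minus for IFI6, chr1:1013369-1013414 plus for ISG15 and chr2:6877617-6877656 plus for RSAD2.
IFI44L: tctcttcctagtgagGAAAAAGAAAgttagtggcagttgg
IFI44: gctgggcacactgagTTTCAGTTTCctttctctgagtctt
IFITM1: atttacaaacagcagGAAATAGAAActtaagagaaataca
BST2: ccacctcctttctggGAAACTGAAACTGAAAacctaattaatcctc
IFI6: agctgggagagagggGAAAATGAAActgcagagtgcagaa
ISG15: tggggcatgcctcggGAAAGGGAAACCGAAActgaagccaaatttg
RSAD2: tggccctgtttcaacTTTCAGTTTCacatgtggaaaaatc

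The IFI44L promoter held the same 40 letters at a further place, chr1:78620269-78620308. Read by the probe set of highest mean level, 11 of the 20 genes with the letters lay higher on the miR-20a arrays and 9 lower. Over all genes so read, 53.0% lay lower. The changes of the 20 ran from -0.68 to 0.44 log2 units, with a median of 0.053. The 8 genes without the letters had a median of 0.033 and a range from -0.29 to 0.13. At an unadjusted p under 0.05 (limma), 3 of the 20 were higher and 4 lower, against 11.8% and 8.33% of all genes. Of the 20, IFIH1, IFIT3, GBP1 and RSAD2 also had a probe set of the other sign. The part of the letters in these changes was not tested.

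The interferon-induced genes did not move as a block when miR-20a was added. None of the 61 probe sets passed the threshold, an adjusted p under 0.05 in limma's moderated test fitted over all 41920 probe sets (smallest adjusted p of a member 0.136). Among all probe sets 57 passed, or 0.136%, of which 50 were higher and 7 lower in miR-20a cells. The number over all probe sets was 0 without miR-NT replicate 1, 0 without miR-NT replicate 2 and 16 without miR-20a replicate 1. The members' changes lay between -0.68 and 0.45 log2 units, and the smallest change that passed anywhere in the table was 0.78. Each array averages a whole culture, so fewer cells that express a gene and less RNA per cell cannot be told apart.

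Below the threshold the members split unevenly. At an unadjusted p under 0.05, 11 of the 61 were lower in miR-20a cells, where 8.4% of all probe sets were, and 4 were higher, where 9.46% of all were (limma). These shares were 18.0% and 6.56%. The split was 6 lower and 5 higher when each array was centred on its median, where 5.75% and 11.8% of all probe sets were. Without miR-NT replicate 1 it was 4 lower and 1 higher, where 3.27% and 4.43% of all probe sets were. Without miR-NT replicate 2 it was 5 lower and 3 higher, where 5.33% and 6.83% were. Both miR-20a arrays lay below both miR-NT arrays for 22 members (36.1%, against 27.2% of all probe sets) and above for 13 (21.3%, against 21.7%). The groups overlapped for 26. By mean, 31 were higher and 30 lower, where 55.3% of all probe sets had a lower mean, and the median change was 0.012, against -0.020 over all probe sets.

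**Figure D1:**
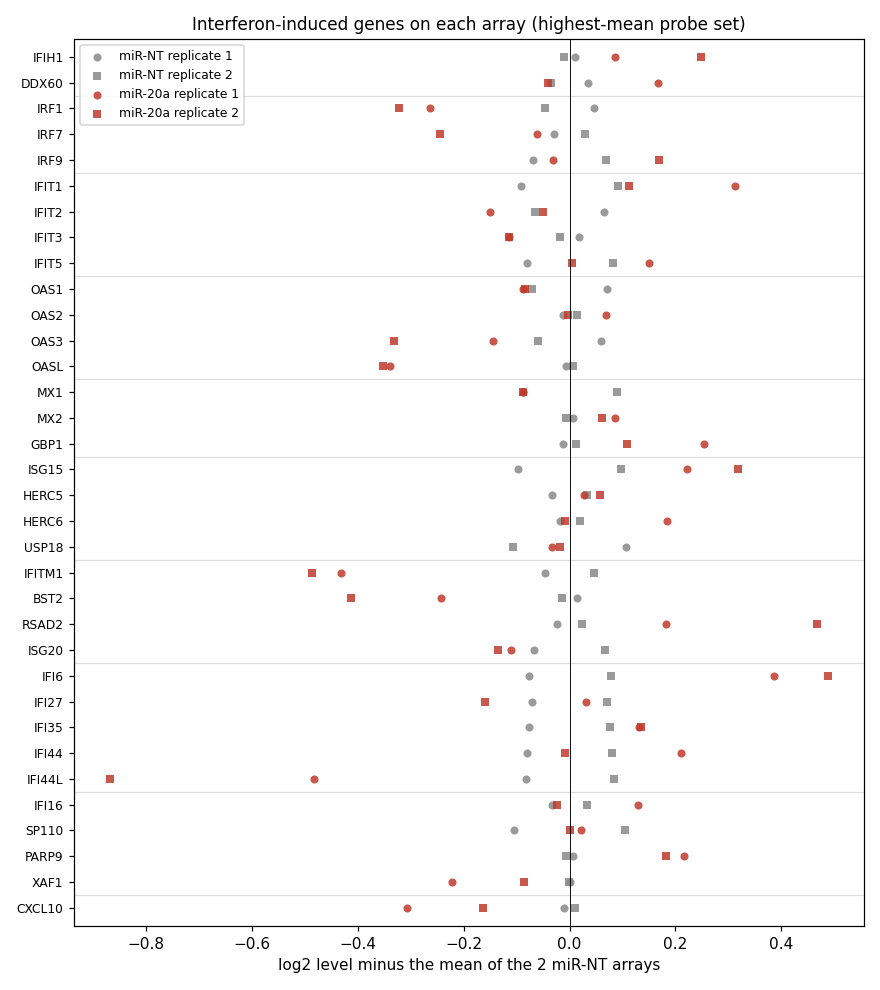
Levels of the 34 interferon-induced genes on each of the 4 arrays, as the log2 level minus the mean of the 2 miR-NT arrays (x axis), taking for each gene the probe set of highest mean level, grouped by role (y axis, grey lines between roles). Grey points are miR-NT and red points miR-20a, with circles for replicate 1 and squares for replicate 2. IFI44L, IFITM1, OASL, BST2 and IRF1 lie left of both control arrays, while IFI6, RSAD2 and ISG15 lie right of them.

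The sensors of viral RNA stayed close to the control arrays. IFIH1, the cytosolic RNA sensor MDA5, was read by 3 probe sets with changes of 0.17, -0.17 and -0.08. Its highest-mean probe set stood at 5.08 and 5.06 log2 units in controls, against miR-20a arrays at 5.16 and 5.32. DDX60, a helicase linked to RNA sensing, differed by 0.06 ± 0.11 (SE), with a 95% interval from -0.19 to 0.31. None of these 4 probe sets reached an unadjusted p of 0.05, and the signs within IFIH1 differed.

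Among the transcription factors of the response, IRF1 was the one with a probe set that separated the groups with an unadjusted p under 0.05. IRF1 activates many interferon-gamma and antiviral genes. Its probe set 202531_at stood at 8.93 and 8.84 log2 units in controls, and miR-20a arrays stood at 8.62 and 8.56. The difference was -0.29 ± 0.09 (SE, limma adjusted p = 0.194). Both miR-20a arrays were below both controls, but the other probe set, 238725_at, differed by only 0.04 ± 0.09. IRF7, which drives interferon-alpha transcription, differed by -0.15 ± 0.10, with both miR-20a arrays at 6.69 and 6.50 against 6.72 and 6.78. IRF9, the DNA-binding partner in the STAT complex, differed by 0.07 ± 0.11, with overlapping arrays, and its sign turned after quantile normalization.

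The IFIT proteins bind foreign RNA ends and block its translation. Their 7 probe sets had a median change of 0.078, and none reached an unadjusted p of 0.05 (limma). IFIT1 stood at 6.59 and 6.77 log2 units in controls, with miR-20a arrays at 6.99 and 6.79, a difference of 0.21 ± 0.11 (SE, limma adjusted p = 0.379). Both miR-20a arrays were above both controls, but the nearest arrays of the groups lay closer together than the arrays within each group. IFIT3 was split, with 204747_at at -0.11 and 229450_at at 0.32. The latter rested on miR-20a replicate 1, at 8.07, while replicate 2 was at 7.69 and the controls at 7.42 and 7.69. IFIT2 differed by -0.10 and -0.03 and IFIT5 by 0.08 and 0.14 over their probe sets.

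In the OAS family 3 of 4 genes had lower means in miR-20a cells on every probe set. OAS enzymes make 2′-5′ oligoadenylates that activate an RNA-degrading enzyme, and OASL is a relative without that activity. Of their 9 probe sets, 3 were lower at an unadjusted p under 0.05 (limma), where 8.4% of all probe sets were. None was higher, where 9.46% of all were. Of the 3 lower ones 2 were of OASL, and the median change of the 9 was -0.22. OASL stood at 8.02 and 8.03 log2 units in controls, against miR-20a arrays at 7.68 and 7.67 by 205660_at. That is a difference of -0.35 ± 0.09 (SE, limma adjusted p = 0.152). Its other probe set, 210797_s_at, stood at 7.55 and 7.53 against 7.28 and 7.36, a difference of -0.22 ± 0.09. The gap between the groups was larger than the spread within either group for both OASL probe sets.

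OAS3, the largest of the family, was lower on both of its probe sets, by -0.24 ± 0.11 and -0.23 ± 0.11 (SE). By 218400_at it stood at 8.03 and 7.91 log2 units in controls, and miR-20a arrays stood at 7.82 and 7.64 (limma adjusted p = 0.300). OAS1 differed by -0.09 ± 0.09 by 202869_at and by -0.29 ± 0.11 by 205552_s_at. The latter stood at 5.18 and 5.06 in controls, with miR-20a arrays at 4.72 and 4.94. OAS2, whose gene lies next to OAS3, did not follow: its 3 probe sets differed by 0.03, 0.07 and 0.01, and the arrays of the groups overlapped for each. The signs of all 9 were the same after quantile normalization and after median centring.

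Of the antiviral GTPases, MX1 and MX2 stayed within 0.1 log2 units of the controls and GBP1 was split. MX1, a cytoplasmic inhibitor of RNA viruses and among the most used reporters of type I interferon, differed by -0.09 ± 0.10 (SE, 95% interval from -0.33 to 0.15). It stood at 6.47 and 6.65 log2 units in controls and at 6.47 on each miR-20a array. MX2, a nuclear-envelope inhibitor of retroviruses, differed by 0.07 ± 0.09. GBP1 is a GTPase that acts against intracellular microbes and is strongly induced by interferon-gamma. It had 3 probe sets higher, by 0.18, 0.45 and 0.28, and 1 lower, by -0.18. The lower one, 231578_at, was at percentile 9.2 of the table by mean level, and the higher ones were between 34.7 and 56.1. The probe set at 0.45, 231577_s_at, stood at 6.21 and 6.64 in controls, against miR-20a arrays at 6.93 and 6.82 (SE 0.15, limma adjusted p = 0.210). Its control arrays differed by more than the gap between the groups. The value of 0.28 came from miR-20a replicate 1 alone, at 6.70 against 6.05 on replicate 2, and turned to -0.044 without it.

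In the ISG15 system, ISG15 itself lay above the control arrays, while the arrays of HERC5 and USP18 overlapped. ISG15 is a ubiquitin-like protein that is attached to other proteins, HERC5 is the ligase that attaches it and USP18 removes it and restrains the interferon receptor. ISG15 stood at 8.94 and 9.13 log2 units in controls, and miR-20a arrays stood at 9.25 and 9.35. The difference was 0.27 ± 0.10 (SE, limma adjusted p = 0.254), and both miR-20a arrays were above both controls. HERC5 differed by 0.04 ± 0.09 and USP18 by -0.03 ± 0.10, with overlapping arrays, and the sign of USP18 turned after quantile normalization and after median centring. HERC6, a relative of HERC5, differed by 0.09 ± 0.10 by 219352_at and by -0.35 ± 0.10 by 1563659_at. The latter stood at 5.85 and 5.68 against 5.47 and 5.37 (limma adjusted p = 0.181).

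The membrane and other antiviral effectors were 6 probe sets of 4 genes. At an unadjusted p under 0.05 (limma), 3 were lower, where 8.4% of all probe sets were, and 1 was higher, where 9.46% were. Of the 3 lower ones, those of IFITM1 and ISG20 were in the lower 40% of the table by mean level. IFITM1, a membrane protein that blocks entry of enveloped viruses, stood at 6.32 and 6.42 log2 units in controls, with miR-20a arrays at 5.94 and 5.88. The difference of -0.46 ± 0.09 (SE) had the smallest adjusted p of the members, 0.136 (limma), and 230 of the other probe sets in the table had a lower change. A further probe set that names IFITM1 together with IFITM2, and is therefore no member, differed by -0.32 ± 0.12. BST2, or tetherin, which holds budding virus at the cell surface, stood at 6.81 and 6.79 against 6.56 and 6.39, a difference of -0.33 ± 0.10 (limma adjusted p = 0.187). For both genes the miR-20a arrays were below both controls.

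RSAD2, or viperin, an enzyme that makes a chain-terminating nucleotide, was split. By 213797_at it stood at 5.18 and 5.23 log2 units in controls, against miR-20a arrays at 5.39 and 5.67, a difference of 0.32 ± 0.12 (SE, limma adjusted p = 0.230). By 242625_at it differed by -0.13 ± 0.10. That probe set was at percentile 4.1 of the table by mean level, against 20.2 for 213797_at. ISG20, an RNA exonuclease, was lower on both probe sets, by -0.12 ± 0.09 and -0.28 ± 0.11, and the second stood at 5.65 and 5.86 against 5.40 and 5.54. CXCL10, a chemokine that attracts T cells, stood at 6.03 and 6.05 in controls, and miR-20a arrays stood at 5.73 and 5.87, a difference of -0.24 ± 0.09 (limma adjusted p = 0.268).

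The IFI proteins held both the lowest member and the highest single-probe-set gene. IFI44L, a protein of little-known function used in blood signatures of interferon, stood at 7.50 and 7.67 log2 units in controls, with miR-20a arrays at 7.10 and 6.72. The difference was -0.68 ± 0.14 (SE), or 1.60-fold lower, with a 95% interval from -1.02 to -0.33 (limma adjusted p = 0.138). Only 25 of the 41920 probe sets had a lower change. IFI6, a small membrane protein known to oppose cell death, stood at 8.51 and 8.66 against 8.97 and 9.07. That is a difference of 0.44 ± 0.10, or 1.35-fold higher (limma adjusted p = 0.141), and 1056 probe sets had a higher change. The groups did not overlap for either gene.

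IFI44 is the next protein-coding gene to IFI44L on chromosome 1 and a member of the same family. It did not follow IFI44L, with changes of 0.10 ± 0.11 and 0.03 ± 0.09 (SE) on its probe sets and overlapping arrays. The IFI44L level minus the IFI44 level shifted by -0.78 log2 units from miR-NT to miR-20a arrays (SD between arrays 0.0034 and 0.12, n = 2 each). This pair was chosen after its values were seen, and the smallest p that an exact permutation test over 2 against 2 arrays allows is 0.333. IFI27, a mitochondrial protein, differed by -0.07 ± 0.11 and IFI35, a leucine-zipper protein, by 0.13 ± 0.10.

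Of 13 probe sets of the nuclear and apoptosis-linked members, 1 was lower at an unadjusted p under 0.05 (limma), where 8.4% of all were. None was higher, and the median change was 0.020. IFI16, a nuclear DNA sensor, had changes of 0.05, 0.02 and -0.23 over its 3 probe sets. The last, 208965_s_at, stood at 8.93 and 9.06 log2 units in controls, against miR-20a arrays at 8.81 and 8.73 (SE 0.10, limma adjusted p = 0.280). After quantile normalization all 3 were negative. SP110, a nuclear-body protein, had 5 probe sets between -0.10 and 0.16. PARP9, which works with a ubiquitin ligase in DNA repair and interferon signalling, was higher on both probe sets, by 0.20 ± 0.09 and 0.11 ± 0.11. By the first of these it stood at 7.50 and 7.49 against 7.71 and 7.68 (limma adjusted p = 0.294). XAF1, which counters an inhibitor of apoptosis, had changes of -0.15, -0.02 and -0.16.

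Probe sets of the same gene often disagreed. Of the 18 genes with 2 or more probe sets, 10 had a single sign over all of them: 4 were higher throughout (IFIT5, OAS2, IFI44 and PARP9) and 6 lower (IFIT2, OAS1, OAS3, OASL, ISG20 and XAF1). For IFIT2 and XAF1 1 probe set turned positive after quantile normalization or median centring. The signs differed for the other 8. OASL was the gene with 2 probe sets that were both lower at an unadjusted p under 0.05 (limma). Of the 61 members, 41 differed by less than 0.2 log2 units in either direction (67.2%, against 72.4% of all probe sets). For 47 the 95% interval lay within 0.5 log2 units of 0.

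**Figure D2:**
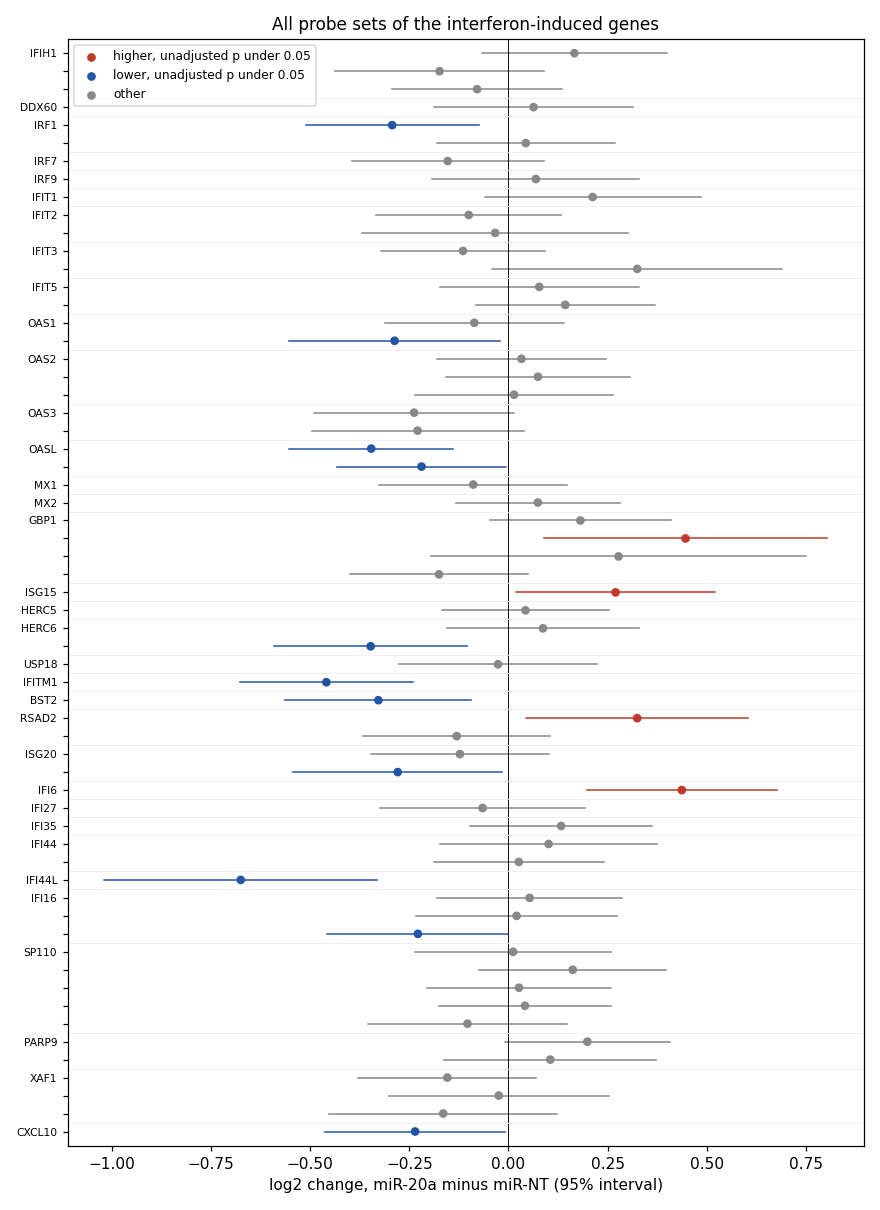
Log2 change from miR-NT to miR-20a with its 95% interval from limma (x axis) for each of the 61 probe sets, grouped by gene (y axis), with the probe set of highest mean level at the top of each gene. Red marks the 4 that were higher and blue the 11 that were lower at an unadjusted p under 0.05, and grey the others. IFI44L at -0.68 lies furthest left, and the probe sets of GBP1, HERC6, IRF1, RSAD2 and IFI16 lie on both sides of 0.

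The change varied with the level of the probe set, in the members and in the whole table. Across probe sets, which are not independent replicates and share the same 4 arrays, Spearman's rho between mean level and change was 0.31 over the 61 members and 0.22 over all. Of the 21 members in the lower 40% of the table by mean level, an unadjusted p under 0.05 (limma) was reached by 5 lower and 1 higher ones, where 7.41% and 2.39% of all probe sets at that level were. Of the 40 in the upper 60%, 6 were lower and 3 higher, where 9.06% and 14.2% were. Median changes of the members were -0.13 and 0.042, against -0.044 and 0 over all probe sets at those levels. IFITM1, OAS1, HERC6, ISG20 and CXCL10 gave the lower values at low level, and IFI44L, OASL, BST2, IRF1 and IFI16 those at higher level. The part of this trend in the members' values was not tested.

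**Figure D3:**
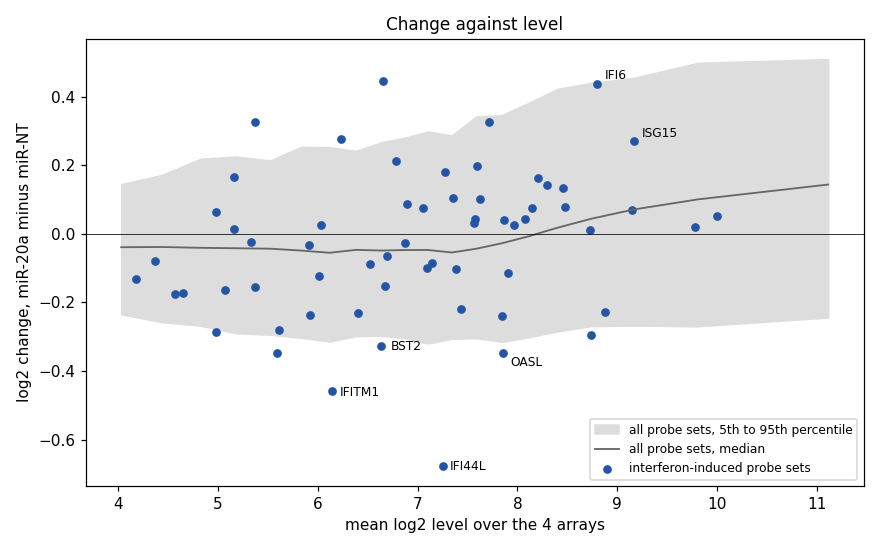
Log2 change from miR-NT to miR-20a (y axis) against the mean log2 level over the 4 arrays (x axis) for the 61 interferon-induced probe sets (points). The grey band spans the 5th to 95th percentile and the grey line the median of all probe sets, in 20 bins of level. Of the labelled points, IFI44L, IFITM1, BST2 and OASL lie below the band, ISG15 lies inside it and IFI6 at its upper edge. HERC6, IRF1 and OAS1 also have a probe set below the band, and GBP1 and RSAD2 have at least 1 above it.

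Upstream of these genes the pathway showed no change past the threshold. Of 18 measured interferon ligand genes, 1 probe set each, 0 passed. At an unadjusted p under 0.05 (limma) 0 were lower or higher, against 8.4% and 9.46% of all probe sets. By mean, 15 were lower (83.3%), against 55.3% of all probe sets and 63.2% of those in the lower 40% by mean level. Both miR-20a arrays lay below both controls for 9 (50%, against 27.2% of all) and above for 0 (against 21.7%). IFNB1, interferon-beta, differed by 0.17 ± 0.14 (SE, 95% interval from -0.15 to 0.50), and IFNA4 by -0.28, IFNA21 by -0.17 and IFNK by -0.14. Among 22 probe sets of 9 receptor and kinase genes 0 passed. An unadjusted p under 0.05 (limma) was reached by 1 higher (4.55%) and 0 lower ones, against 9.46% and 8.4% of all probe sets. The type I receptor chain IFNAR1 had changes from -0.09 to 0.28 over 4 probe sets. Its partner IFNAR2 had -0.14 ± 0.09 (SE) and -0.24 ± 0.27. For the latter the groups overlapped, with controls at 7.35 and 7.11 log2 units against 7.45 and 6.53 with miR-20a. The kinase JAK2 reached 0.24 and JAK1 ranged from -0.19 to 0.28. The interferon-gamma receptor IFNGR1 had a probe set at -0.19, at percentile 10.4 of the table by mean level. Its other probe sets differed by 0.11 and 0.06, at percentiles 71.4 and 72.0.

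Of 10 probe sets of 5 other STAT and IRF genes 0 passed and IRF8, a factor of myeloid cells, was lower at an unadjusted p under 0.05, by -0.25 ± 0.10 (SE). STAT3 ranged from -0.15 to 0.22 and IRF5 from -0.12 to 0.12. IRF2, which competes with IRF1 for the same element, differed by 0.09. Among 33 probe sets of 17 sensor and adaptor genes 0 passed. An unadjusted p under 0.05 (limma) was reached by 2 higher (6.06%) and 1 lower ones (3.03%), against 9.46% and 8.4% of all probe sets. These were the adaptor TRAF3 at 0.27, the RNA sensor RIGI at 0.22 and TRIM25, a ligase that activates RIGI, at -0.24. All 3 genes also had a probe set of the other sign, and the adaptor TICAM1 had a probe set at -0.15.

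Of 33 probe sets of 10 negative regulators 0 passed. An unadjusted p under 0.05 (limma) was reached by 2 higher (6.06%) and 5 lower ones (15.2%), against 9.46% and 8.4% of all probe sets. SOCS3, a feedback inhibitor of cytokine receptors, was lower on all 4 of its probe sets, from -0.49 to -0.17, 3 of them at an unadjusted p under 0.05. That sign was the same after quantile normalization and median centring. The phosphatase PTPN11 was split, from -0.30 to 0.42 over 6 probe sets, as were CUL3, a ubiquitin ligase scaffold, from -0.11 to 0.40, and the phosphatase PTPN2, from -0.26 to 0.19.

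A list of further interferon-induced genes held more lower than higher probe sets. Of 85 probe sets of 38 genes 0 passed. An unadjusted p under 0.05 (limma) was reached by 13 lower (15.3%, against 8.4% of all probe sets) and 7 higher ones (8.24%, against 9.46%). The median change was -0.062. LY6E, a membrane protein that restricts viral fusion, stood at 9.89 and 9.77 log2 units on the control arrays and at 9.23 on each miR-20a array. Its difference of -0.60 ± 0.09 (SE) had a limma adjusted p of 0.102. PML, the organizer of nuclear bodies, was lower by mean on 9 of 10 probe sets, 5 of them at an unadjusted p under 0.05. IFITM2, a relative of IFITM1, differed by -0.37 ± 0.09, and IFITM3, added after its value was seen, by -0.34 ± 0.10. The probe sets of IFITM2 and IFITM3 carry the suffix of probes that can bind related transcripts. DDX60L, a relative of DDX60, had 1 probe set at 0.35 and 1 at -0.15. PLSCR1 was higher by mean on all 3 of its probe sets, from 0.0074 to 0.41, 2 of them at an unadjusted p under 0.05 (limma). NMI at 0.39 and TRIM22 at 0.35, with 1 probe set each, were higher at that p. SP100 and TRIM5 each had a probe set higher at that p, at 0.29 and 0.32, and at least 1 lower by mean. These genes from PLSCR1 on were also added after their values were seen.

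**Figure D4:**
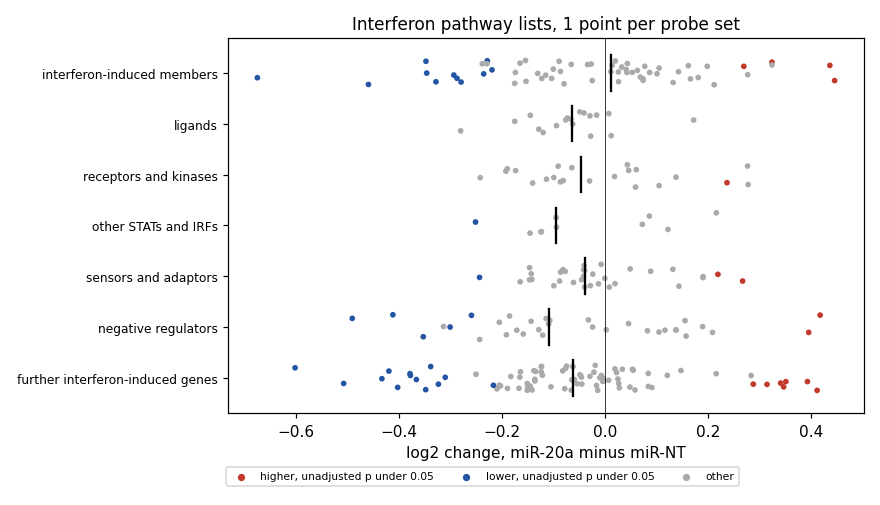
Log2 change from miR-NT to miR-20a (x axis) for each probe set of the interferon-induced members and of 6 related lists (y axis, points spread vertically for display). Black bars are medians, and red and blue mark an unadjusted p under 0.05, higher and lower. The members run from -0.68 to 0.45, and the ligands have no coloured point.

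Of the arrays as a whole, the median log2 level lay between 6.97 and 7.01, and correlations over all probe sets were 0.995 and 0.996 within groups and 0.991 to 0.994 across them. Over the 61 members they were 0.993 and 0.995 within and 0.984 to 0.988 across. QKI, the knocked-down gene, had 10 probe sets, of which 0 passed. At an unadjusted p under 0.05 (limma) 2 were lower (20%, against 8.4% of all probe sets). All groups carry the knockdown, so these values do not check it. The 34 probe sets of 8 glioma markers had a median percentile of level of 84.2, and CD44 reached 99.2, while GFAP, the astrocyte filament, reached 53.0. Their summed log2 levels were 323.7 on each control array, against 319.4 and 318.0 with miR-20a. Of the 34, 2 passed, both of CHI3L1, a secreted glycoprotein of glioma, which fell by 1.14 and 1.12 on the log2 scale (limma adjusted p = 0.025 and 0.024). An unadjusted p under 0.05 (limma) was reached by 7 lower ones (20.6%, against 8.4% of all probe sets) and by 0 higher ones. The lower ones were those of CHI3L1, FN1 and NES. Markers of blood, endothelial, epithelial and dendritic cells had median percentiles between 34.1 and 43.9, but single probe sets reached 76.4 (HBB), 82.0 (PECAM1), 71.6 (CLDN4) and 65.5 (IL3RA). PTPRC, the pan-leukocyte marker, spanned 0.14 to 42.3, CD3E was at 67.8, and of the dendritic markers CLEC4C reached 7.61, LILRA4 52.4 and CD1C 53.9. Levels cannot be told from background here, since the values carry no detection calls. Summed log2 levels of the 19 blood probe sets were 114.4 and 114.1 in controls, against 111.9 and 113.6 with miR-20a. At an unadjusted p under 0.05 (limma), 4 of the 19 were lower (21.1%, against 8.4% of all probe sets) and 0 higher. Of these 4, 3 were of MS4A1 and 1 was of CD3E. As a sign of RNA quality, the ACTB control at the 3′ end exceeded that at the 5′ end by 0.20 and 0.35 log2 units in controls, and by 0.52 and 0.46 with miR-20a. The part of these differences in the members' values was not tested.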

How the data were processed

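Each of the 4 RNA samples was read on 1 single-colour Affymetrix-type array. The values are log2 probe-set levels as deposited by the authors, and per the submitters' processing notes the R package affy was used. How that package corrected background, normalized and summarized is not given in the labels or files. Log base 2 is a reading of the values (3.447 to 15.07). Whether replicates were separate cultures is not in the labels, so p-values describe the spread of these arrays alone, possibly a technical one, and 4 arrays limit the precision.

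Gene names are those of the platform annotation at GEO, checked by Entrez identifier against RefSeq (GRCh38.p14), with 0 symbols changed. The platform annotation names no build, so coordinates are those of the RefSeq sequence tables alone. Of 41920 probe sets, 37465 named 1 gene, 1727 several and 2728 none. miR-20a was compared with miR-NT with limma 3.58.1 under R 4.3.3, by lmFit then eBayes with group as the single term, on all 41920 probe sets, without a filter on low values. Its prior SD was 0.103 at 4.6 degrees of freedom. The Benjamini-Hochberg adjustment of the two-sided p covered every probe set. The fit was tested on simulated data. Errors are the fit's SE, or SD where stated.

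The members and lists were chosen with earlier results of these data known. All 35 listed genes were to be accounted for, with array values for the 6 highest and 6 lowest changes by highest-mean probe set and for genes whose probe sets differed in sign with 1 at an unadjusted p under 0.05. In related lists up to 4 genes with the smallest p were named, besides QKI, IFNB1, IFNAR1 and IFNAR2. 1 further gene on that list is not analysed here. OAS1, ISG20, CXCL10 and the other members with array values were added after their values were seen. So were IFITM3, PLSCR1, NMI, TRIM22, SP100 and TRIM5 of the related lists. Alternatives were quantile normalization, a filter on low levels, median centring, the replicate number as a block, a trend and robust eBayes, 1 value per gene, removal of probe sets with the suffix _x_at, a threshold of 0.1 and leaving out each array.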

Additional observations from a re-analysis of the deposited data

Results flagged for a closer look

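The ACTB array controls, which enter no comparison, had a mean 3′ minus 5′ difference of 0.486 log2 units on the miR-20a arrays, above the 0.272 of the miR-NT arrays (SD 0.042 and 0.11, n = 2 each).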

How the results depend on the processing

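No member passed under any alternative at an adjusted p under 0.05, and none passed at 0.1 in the fit reported. The smallest adjusted p under an alternative was 0.053, for IFI6 with a trend and robust eBayes. IFI44L stayed between -0.87 and -0.48, IFITM1 between -0.51 and -0.41 and IFI6 between 0.36 and 0.51. Of 305 single values, 295 kept their sign. After quantile normalization IFI16 turned to -0.078 by 206332_s_at and -0.067 by 208966_x_at. As a mean of probe sets IFI16 was -0.052 and HERC6 -0.13. With each array left out, the range was -0.044 to 0.599 for GBP1 by 202270_at, -0.0091 to 0.183 for HERC6 by 219352_at, -0.062 to 0.103 for IFI16 by 206332_s_at, -0.023 to 0.13 for IFI16 by 208966_x_at and -0.010 to 0.098 for IRF1 by 238725_at. The cause was not tested.

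The members lower at an unadjusted p under 0.05, 11 in the fit reported, were 7 after quantile normalization (8.03% of all probe sets), 6 after median centring (5.75%), 7 of 40 without low levels (10.5%), 6 of 34 with 1 probe set per gene (9.24%) and 6 with their mean (9.52%), each percentage being the share over all features in that setting. As means of probe sets, 2 of 34 were higher, against 10.2% of all genes. With each array left out they were 4 to 8 lower and 1 to 5 higher. Such a fit has a single array in 1 group, so these ranges cannot decide whether the members differ from all probe sets. The members' median was -0.015 after quantile normalization, 0.045 after median centring, 0.042 without low levels, -0.028 as means per gene, -0.025 without _x_at probe sets and from -0.043 to -0.00073 with each array left out. Over all probe sets, 957 passed with a trend and robust eBayes, 334 without low levels, 153 as means per gene, and 0 to 66 with each array left out. At an unadjusted p under 0.05 (limma) there were 3231 without miR-NT replicate 1 and 5097 without miR-NT replicate 2.

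Same-numbered arrays deviated from their group means with r = -0.12. With 2 arrays per group the crossed numbers give the same value with the other sign. This cannot decide whether the numbers pair the samples, and the labels do not say. With the replicate block 0 probe sets passed (limma, 5754 at an unadjusted p under 0.05), and 7 members were lower and 3 higher at that p, against 6.17% and 7.56% of all. With the crossed pairing, chosen after seeing the data, 0 passed (limma, 7343 at an unadjusted p under 0.05).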
